A study of Mus musculus with 39 samples.

Results

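MiRNA levels of mouse ESCs kept in 100 ng/ml Activin A were compared between day 3 and day 1 of treatment, with 3 arrays at each day. These 6 arrays were chosen by their labels from the 39 arrays of the series, and no measured value was used to choose them. The control cells of the same days, 6 further arrays, were kept in the same medium without growth factor, and their shift from day 1 to day 3 was set beside that of the Activin A cells. All 4 groups came from the mouse ESC line TCL-1, which was grown on mouse embryonic fibroblast feeders. The feeders were depleted by letting them settle on gelatin, and the ESCs were then plated on collagen in serum-free RPMI 1640 medium with B27 supplement, which the labels say also held sodium butyrate. The labels number the replicates 1 to 3 but do not say whether these were separate cultures, so the p-values measure the spread between these samples only, which may be technical.

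Activin A is a ligand of the TGF-beta family that signals through SMAD2 and SMAD3, and at high dose it drives ESCs through a primitive streak-like stage towards definitive endoderm (DE), the germ layer of gut, liver and pancreas. The study sampled this course at its start on day 1 and during its progression on day 3. A mature miRNA is a short RNA that pairs through its seed, the bases next to its 5′ end, with sites in messenger RNAs and lowers their output. In mouse ESCs the miR-290 to miR-295 cluster is the most abundant, the miR-302/miR-367 cluster comes on in the primed, epiblast-like state, the miR-200 family is known for keeping cells epithelial, and the let-7 family is known for accumulating in differentiated cells, where it opposes the ESC miRNAs.

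The sequences below are RefSeq entries of build GRCm38.p6 in lower case, 5′ to 3′, with the seed, bases 2 to 8, in capitals. They show which of the miRNAs that moved can pair with the same sites. Of 49 array names looked up, 46 had a RefSeq entry. The miR-302/miR-367 cluster lies at chr3:127545228-127545807 on the plus strand, and the plus-strand hairpins of the miR-290 to miR-295 cluster lie at chr7:3218626-3220841. The first group is shown because members of both clusters carry an AAGUGCU core, which starts at base 1 and not base 2 in the miR-302c entry, yet they moved differently.
miR-302b: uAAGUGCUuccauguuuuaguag
miR-302d: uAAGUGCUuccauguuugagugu
miR-302c: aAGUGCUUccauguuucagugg
miR-291a-3p: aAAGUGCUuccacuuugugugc
miR-294: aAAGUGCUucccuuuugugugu
miR-295: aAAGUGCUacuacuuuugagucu

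The next group holds a pair with 1 seed from the miR-302/miR-367 and miR-17-92 clusters, and a pair with 1 seed from the miR-125 family, whose members also moved differently.
miR-367: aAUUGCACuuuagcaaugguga
miR-92a: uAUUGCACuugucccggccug
miR-125b-5p: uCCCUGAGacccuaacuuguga
miR-125a-5p: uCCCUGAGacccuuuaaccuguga

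The let-7 and miR-29 sequences are shown because every member with the family seed that could be tested fell, and the miR-200 sequences because both seeds of that family had the higher shift in Activin A.
let-7f: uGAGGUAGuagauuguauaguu
let-7e: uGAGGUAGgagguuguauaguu
let-7i: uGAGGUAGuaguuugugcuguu
miR-29a: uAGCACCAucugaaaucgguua
miR-200a: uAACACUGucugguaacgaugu
miR-200b: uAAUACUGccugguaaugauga
miR-429: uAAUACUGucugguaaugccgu

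Levels are given as log2 of the quantile normalized total signal of a miRNA, so that a difference of 1 is 2-fold, and a miRNA that the scanner software did not detect sits at the floor of 1. Quantile normalization gives every array the same set of values, so a miRNA that held the same rank on 3 arrays has an SD of 0.00, and high levels move in steps of rank. Of 611 mouse miRNAs, 310 were tested, those that any of the 4 groups showed as detected on 2 or 3 of its arrays. A miRNA was called where limma's empirical Bayes test gave a Benjamini-Hochberg adjusted p under 0.05 and the difference was over 2-fold. The Activin A arrays detected 207 to 233 miRNAs at day 1 and 285 or more at day 3, and the control arrays up to 234 and then 250 to 296. The lowest detected normalized signal was 15.3 to 23 on the Activin A arrays of day 1 and 3.66 to 5.03 on those of day 3. A miRNA at the same low level could therefore be undetected at day 1 and detected at day 3. Before normalization, the median log2 signal of the 159 miRNAs detected on all 12 arrays was 5.81 to 6.38 on the Activin A arrays of day 1 and 7.3 to 7.72 on those of day 3. The 12 arrays were on 3 slides, none of which held both days of either arm. A slide term could be fitted only through slides shared between the arms, and no value within a single slide could be had. The deposited table of processed values holds the Activin A and the Activin A plus Wnt3a columns exchanged relative to the scanner files, and the scanner files were followed here.

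In the Activin A cells 90 miRNAs were higher and 52 lower at day 3 than at day 1, together 45.8% of those tested. Unadjusted, 224 of the 310 had a p under 0.05 in limma's test. In the control cells, 107 were higher and 61 lower over the same days, 54.2% of those tested. None was called in opposite directions in Activin A and control, while 73 were called higher in both and 45 lower in both. The shifts themselves differed for 39 miRNAs, 12.6% of those tested, of which 26 (8.39%) had the higher shift in Activin A and 13 (4.19%) the lower.

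The increases were led by the miR-302/miR-367 cluster and the decreases by miR-125b-5p, the let-7 family, miR-29 and some miRNAs known from fibroblasts. In the list of fibroblast and mesenchymal miRNAs, 6 of 13 tested were lower and 3 higher in Activin A. Over all tested miRNAs 16.8% were lower and 29% higher. Over the 159 miRNAs detected on all 12 arrays, the shift in Activin A followed the shift in control. Across these miRNAs, which share the arrays' normalization and are not independent replicates, Pearson's r between the shifts was 0.891 and Spearman's rho 0.897. The root mean square shift was 1.47 in Activin A and 1.55 in control, and that of the difference between them was 0.711 (log2 differences). Of the 159, 20 were called higher and 38 lower in Activin A, and the day 1 and day 3 arrays did not overlap for 138, or 86.8%.

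**Figure D1:**
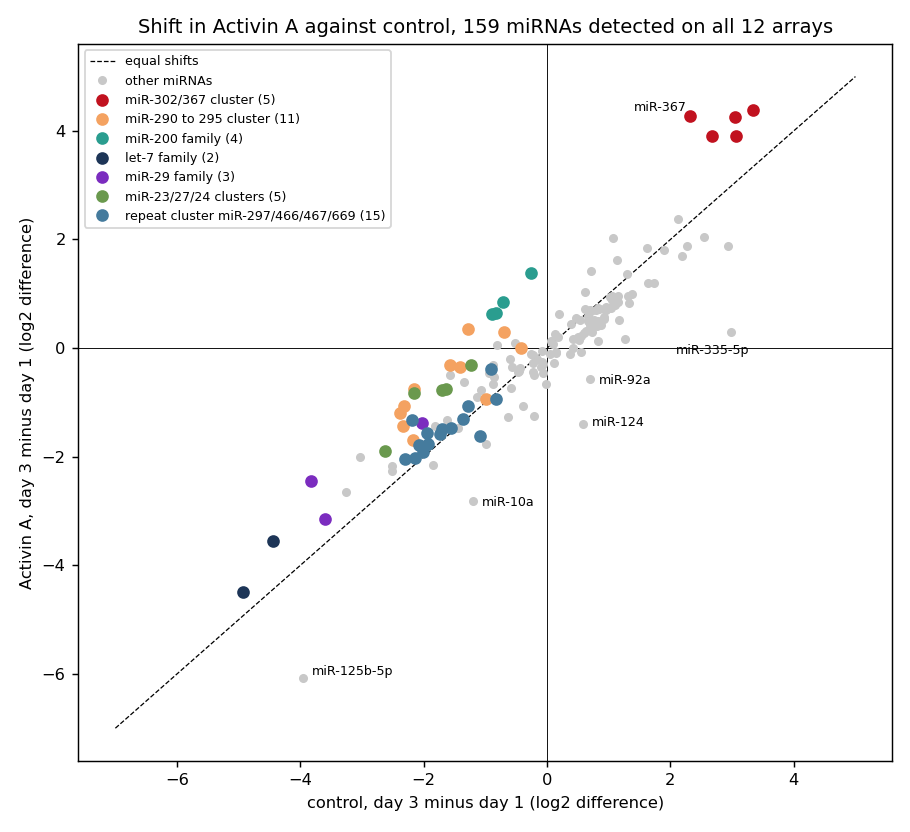
Log2 difference between day 3 and day 1 in Activin A (vertical axis) against that in control (horizontal axis) for the 159 miRNAs detected on all 12 arrays. Each point is a miRNA, coloured where it belongs to a list in the legend, and the dashed line marks equal shifts. The 5 miR-302/miR-367 points and the 4 miR-200 points lie above the line, and miR-335-5p, miR-124, miR-92a, miR-10a and miR-125b-5p lie below it.

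Many of the increases rest on detection. Of the 90 higher miRNAs, 21 were detected on all 6 Activin A arrays. A further 22 were undetected on all day 1 arrays and exceeded what those arrays could have missed, 39 were undetected at day 1 at levels that those arrays could have missed, and 8 were detected on some arrays only. Of the 52 lower miRNAs, 41 were detected on all 6 arrays, 8 were lost from all day 3 arrays above the limit of those arrays, and 3 were detected on some arrays only. The share of higher calls, 63.4%, was 34.5% among miRNAs detected on all 12 arrays, 44.9% with all values raised to the highest detection limit, 52.4% with log2 signals quantile normalized and 53.8% with normexp background correction. The median difference over all tested miRNAs was 0.56 and was 0.11 with log2 signals quantile normalized.

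**Figure D2:**
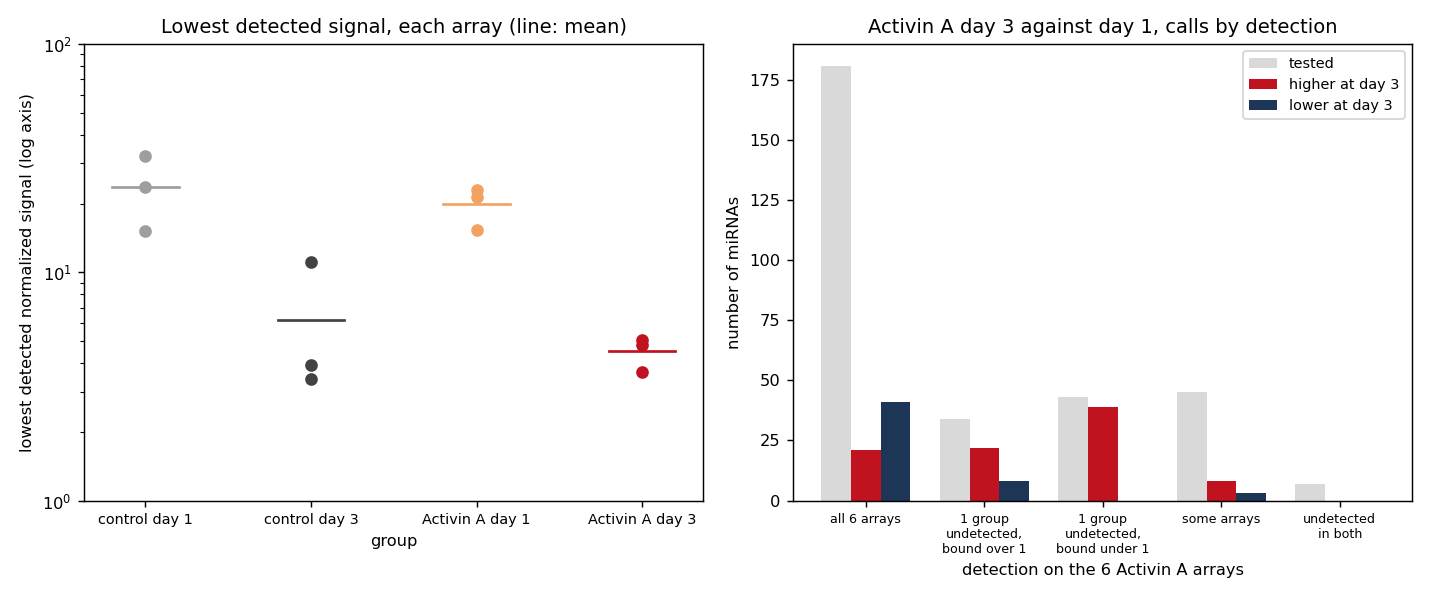
Left, the lowest detected normalized signal of each array on a log axis, with a line at the mean of each group of 3. Right, the number of miRNAs tested, higher and lower at day 3 in Activin A, by how they were detected on the 6 arrays. The day 1 arrays detect down to 15.1 to 32.5 and the day 3 arrays down to 3.42 to 11.1, and 39 higher calls are in the class whose bound is under 1.

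The miR-302/miR-367 cluster, 1 transcript that gives miR-302a to miR-302d and miR-367, had the highest median difference of the lists. Of its 8 members, 7 were tested, and 6 were higher and 0 lower at day 3, against 29% of all tested miRNAs called higher in Activin A. The median difference of the tested members was 4.26, against 0.56 over all tested miRNAs. In control cells 6 members also rose, with a median of 3.05, and the shift was larger in Activin A for 4 members. With normexp background correction 5 members were called higher in Activin A and 4 in control, and the difference between the shifts was called for 0 of the 7.

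MiR-302c was at 5.11, 5.41 and 5.05 on the day 1 arrays and at 9.57 on each of the 3 day 3 arrays. Its raw signals of day 1, 13.5, 15.2 and 14.1, compare with 1047, 917 and 1214 on day 3, so equal normalized levels at day 3 stand for equal ranks and not equal signals. The difference was 4.38 ± 0.15 (SE, n = 3 arrays a day, limma adjusted p = 2.65e-09), and in control it was 3.35.

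MiR-367 went from 6.47, 6.61 and 6.86 to 10.81, 11.13 and 10.81 in Activin A, a difference of 4.27 ± 0.27 (SE, limma adjusted p = 3.15e-07). In control it went from 7.78, 7.32 and 7.44 to 10.16, 10.16 and 9.16. Every Activin A array lay below every control array at day 1 and above every control array at day 3. The difference between the shifts, 1.96 ± 0.37 (SE, limma adjusted p = 0.00343), was the largest increase over control among miRNAs detected on all 12 arrays (adjusted p = 0.216 with normexp background correction).

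MiR-302b rose by 4.26, from 6.38, 6.396 and 6.74 to 10.74, 10.81 and 10.74. MiR-302a rose by 3.90, from 7.36, 7.44 and 7.29 to 11.27 on all 3 arrays, and miR-302d rose by 3.90, from 6.80, 6.47 and 6.95 to 10.64 on all 3 arrays. The days did not overlap for any of these. In control the 3 rose by 3.05, 2.68 and 3.06, and the shift was larger in Activin A by 1.21 for miR-302b (limma adjusted p = 0.000172) and 1.22 for miR-302a (limma adjusted p = 4.46e-05). For miR-302d the excess of 0.84 was under 2-fold. Levels at day 1 enter these shifts. The raw day 1 signals of miR-302a were 94, 72.2 and 95.1 in Activin A and 118, 149 and 130 in control. Those of miR-302b, 50.3, 35.4 and 68.1 in Activin A and 63.3, 83.9 and 70.1 in control, overlapped. MiR-302a*, the strand opposite miR-302a, was undetected at day 1 and at 5.96, 6.03 and 6.03 at day 3, at least 3.28-fold higher (adjusted p = 0.072 with normexp background correction).

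Levels of the undifferentiated ESCs and of day 5 are given for a pair of members. MiR-302a was at 9.68 ± 0.05 (SD, n = 3) in undifferentiated ESCs, 7.37 ± 0.07 at day 1 and 11.27 ± 0.00 at day 3 of Activin A, and miR-367 was at 8.92 ± 0.09, 6.64 ± 0.20 and 10.92 ± 0.18. At day 5 of Activin A they were at 11.27 ± 0.00 and 10.53 ± 0.10. The undifferentiated arrays were on the slide that held 2 of the 3 day 1 arrays. These levels were not tested against each other.

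**Figure D3:**
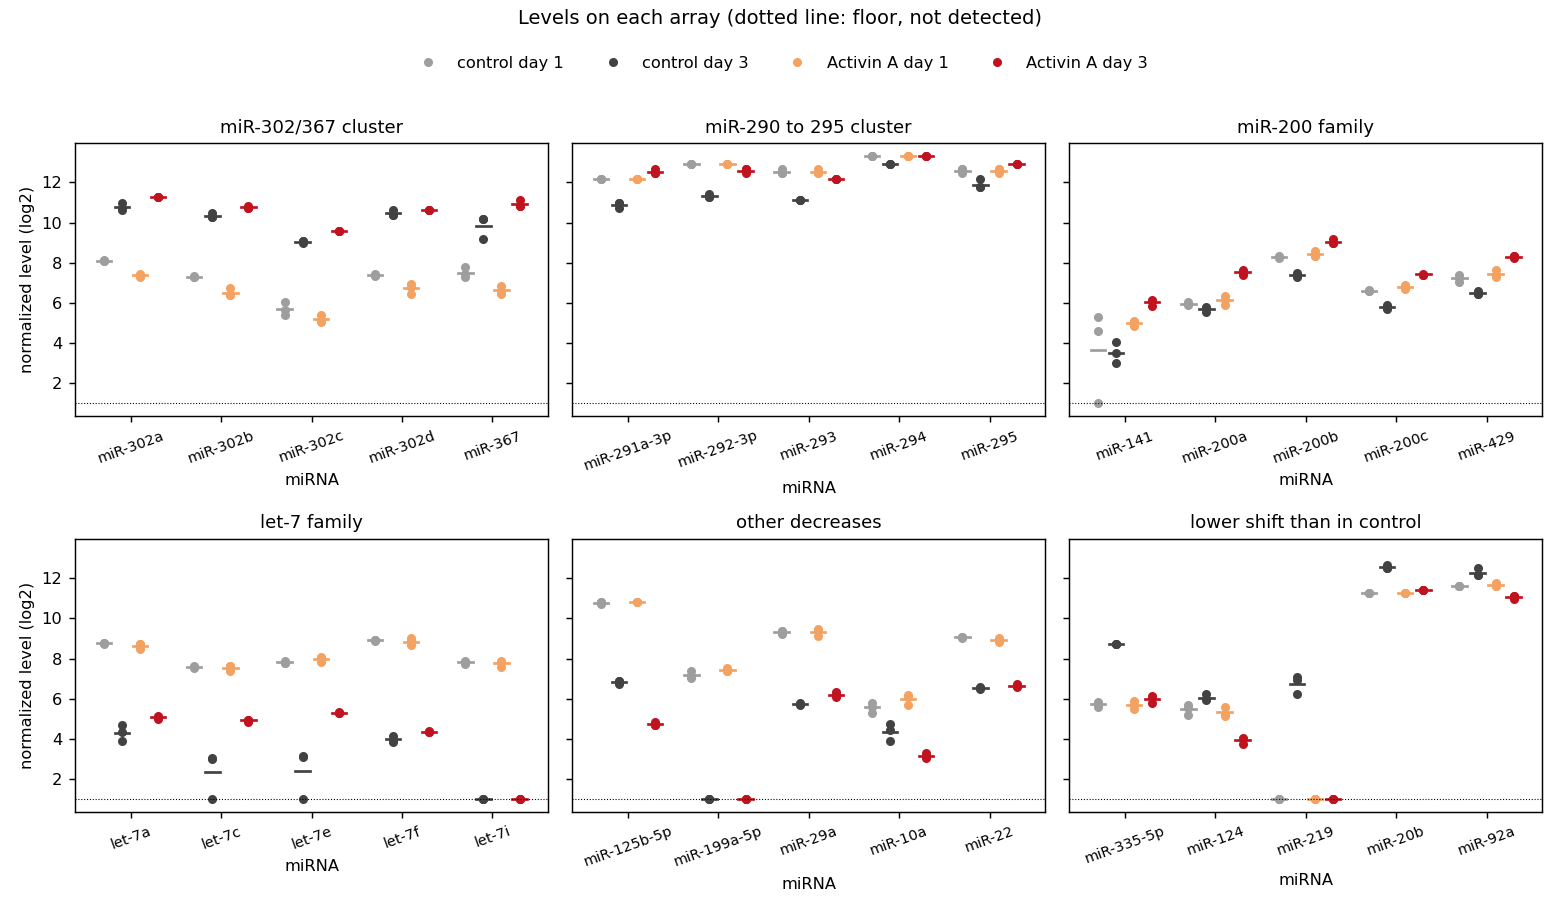
Normalized log2 level on each array (points) and group mean (short lines) for 30 miRNAs in 6 panels, with 3 arrays in each of control day 1, control day 3, Activin A day 1 and Activin A day 3. The dotted line is the floor, where a miRNA was not detected. The miR-302/miR-367 members rise in both treatments and further in Activin A, the miR-200 means lie higher at day 3 in Activin A and lower in control, and the let-7 members fall in both.

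The miR-290 to miR-295 cluster, the ESC-specific cluster that promotes the rapid cycling of these cells, moved less in Activin A than in control. Of its 14 members 13 were tested, 0 were higher and 4 were lower at day 3, against 16.8% called lower over all tested miRNAs. In control 9 of the 13 were lower. The shift was higher in Activin A for 7 members, against 8.39% of all tested miRNAs, and lower for 0. Under normexp background correction 1 member was lower in Activin A and 5 in control, and the shift was higher in Activin A for 3. The median difference was -0.70 in Activin A and -1.57 in control.

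MiR-294 was at 13.32, the top of the normalized scale, on all 6 Activin A arrays. Its raw signals of day 1, 11935, 8582 and 12604, overlapped those of day 3, which were 10474, 9309 and 11080. In control its level was 13.32 on each array of day 1 and 12.89 on each array of day 3.

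MiR-291a-3p was at 12.18 on all 3 day 1 arrays and at 12.48, 12.64 and 12.48 at day 3 of Activin A, a difference of 0.36, under 2-fold. In control it was at 12.18 on each array of day 1 and at 10.98, 10.98 and 10.74 at day 3. The arms were equal at day 1 and apart at day 3, and the shifts differed by 1.64 ± 0.10 (SE, limma adjusted p = 3.02e-06).

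The 4 members called lower in Activin A were miR-290-3p, miR-291a-5p, miR-292-5p and miR-294*. They fell by 1.44, 1.19, 1.69 and 1.07. MiR-292-3p, miR-293, miR-294 and miR-295 differed by -0.30, -0.36, 0.00 and 0.30.

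Members of the 2 clusters with 1 seed moved apart. Among the 5 miRNAs with the seed AAGUGCU, miR-302b and miR-302d were called higher, while miR-291a-3p, miR-294 and miR-295 lay between 0.00 and 0.36. MiR-92a, which has the seed of miR-367, was at 11.59, 11.59 and 11.75 at day 1 and 11.13, 10.98 and 11.13 at day 3 of Activin A, a difference of -0.56, under 2-fold. In control miR-92a differed by 0.69, and the shifts differed by -1.25 ± 0.13 (SE, limma adjusted p = 7.39e-05). That call was lost with both scalings to the 75th percentile (adjusted p up to 0.303).

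The miR-200 family, which targets the Zeb repressors of epithelial genes, had a higher shift in Activin A than in control for most tested members. Of 9 members 5 were tested, and all 5 had a positive difference in Activin A and a negative one in control, with medians of 0.86 and -0.72. Only miR-200a passed the call in Activin A, and none did in control. The shift was higher in Activin A for 4 of the 5, all but miR-141, against 8.39% of all tested miRNAs.

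MiR-200a rose from 5.92, 6.15 and 6.35 to 7.41, 7.50 and 7.64 in Activin A, by 1.38 ± 0.12 (SE, limma adjusted p = 3.31e-06). In control it was at 5.94, 6.03 and 5.92 and then at 5.77, 5.79 and 5.55, and the shifts differed by 1.64 (limma adjusted p = 6.36e-05). The arms overlapped at day 1 and not at day 3.

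MiR-200b was at 8.36, 8.57 and 8.36 at day 1 and at 9.002, 9.16 and 9.002 at day 3 in Activin A, against 8.29, 8.21 and 8.32 and then 7.32, 7.36 and 7.47 in control. Its shifts differed by 1.52 ± 0.11 (SE, limma adjusted p = 6.18e-06), and those of miR-429 by 1.58 ± 0.16 (SE, limma adjusted p = 7.57e-05). MiR-200a and miR-429 lie with miR-200b in 1 cluster, so the 3 share a transcript. With normexp background correction the difference between the shifts was called for 0 of the 5, miR-200a being at 0.97, under 2-fold, and miR-200b and miR-429 at an adjusted p of 0.811 each, and the control median was -0.05.

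The let-7 family fell in both arms. Of 15 members 10 were tested, and 8 were lower and 0 higher in Activin A, against 16.8% called lower over all tested miRNAs. The 8 are those with the seed GAGGUAG, and the other 2 tested are the opposite strands let-7b* and let-7f*, at differences of 0.95 and 1.25 that were not called. In control the same 8 were lower and let-7f* was higher. With normexp background correction 5 members were lower in Activin A and 4 in control, and the difference between the shifts was called for 0.

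Let-7f went from 9.002, 8.87 and 8.66 at day 1 to 4.39, 4.34 and 4.34 at day 3 of Activin A. The raw signals were 323.4, 219.5 and 280.7, and then 22.4, 18.5 and 25.3. The difference was -4.49 ± 0.10 (SE, limma adjusted p = 1.03e-10), and -4.94 in control. Let-7a fell by 3.56, from 8.72, 8.72 and 8.48 to 5.09, 4.99 and 5.16.

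Let-7i, let-7d, let-7b and let-7g were detected on all 3 day 1 arrays and on none of the day 3 arrays. Let-7i was at 7.87, 7.84 and 7.56 at day 1, at least 48.6-fold above the day 3 limit, and let-7d was at least 39.6-fold above it. For let-7b and let-7g the bounds were 26.3-fold and 25.8-fold, and with normexp background correction their differences of -0.73 and -0.64 were under 2-fold. In control the 4 were detected and lost in the same way.

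Let-7e and let-7c were the family members called as falling less in Activin A than in control. With normexp background correction the difference between the shifts did not keep this direction. Let-7a, let-7c, let-7e and let-7f, detected on all 6 Activin A arrays, then had a median of -0.37 for that difference, positive for 0. Let-7e went from 8.04, 8.07 and 7.81 to 5.35, 5.28 and 5.28 in Activin A, a fall of 2.67 (limma adjusted p = 0.000696). In control it went from 7.90, 7.78 and 7.78 to 3.14, 1.00 and 3.09, with 1 array at the floor. Its shifts differed by 2.74 (limma adjusted p = 0.0133) and those of let-7c, also with 1 control array at the floor, by 2.59 (limma adjusted p = 0.014). The falls of let-7e and let-7c in Activin A lost their call with slide as a term (adjusted p up to 0.254 and 0.222), and that of let-7c also with normexp background correction (adjusted p = 0.0691). MiR-99b and miR-125a-5p, which lie in the cluster of let-7e, differed by -0.11 and -0.19 in Activin A, neither of them called.

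MiR-125b-5p fell furthest of the miRNAs detected on all 6 arrays. It was at 10.81 on each day 1 array and at 4.83, 4.71 and 4.70 at day 3 of Activin A. The raw signals were 1051, 754 and 1132, and then 33.1, 26.1 and 37.7. The difference was -6.07 ± 0.06 (SE, limma adjusted p = 3.73e-13). In control it went from 10.74, 10.81 and 10.81 to 6.88, 6.74 and 6.86, and the shifts differed by -2.10 ± 0.08 (SE, limma adjusted p = 1.06e-07). That difference lost its call with normexp background correction (adjusted p = 0.278). MiR-125a-5p, with the same seed, was at 7.32, 7.32 and 7.39 and then at 7.22, 7.12 and 7.10.

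The miR-29 family, known for targeting collagen and DNA methyltransferase messages, fell as well. Of 6 members 3 were tested, and all 3 were lower in both arms, against 16.8% of all tested miRNAs in Activin A and 19.7% in control. With normexp background correction 2 of the 3 were called lower in each arm. MiR-29a fell from 9.49, 9.38 and 9.13 to 6.17, 6.08 and 6.33 in Activin A, by 3.14, and by 3.60 in control. MiR-29b fell by 2.44 in Activin A and 3.83 in control, and these shifts differed by 1.39 (limma adjusted p = 0.00414), a difference not called with normexp background correction.

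In the list of miRNAs known from fibroblasts and mesenchyme, 13 of 19 members were tested. In Activin A 6 were lower, against 16.8% of all tested miRNAs, and 3 higher, against 29%, the 3 being miR-10b, miR-152 and miR-31*, all undetected at day 1 at levels those arrays could have missed. In Activin A the summed normalized signal of the list was 4324 to 4786 (day 1 arrays) and 1369 to 1559 (day 3 arrays). In control it was 4457 to 4495 and then 1085 to 1360. MiR-21 had the highest raw signals of the list. In Activin A they ranged from 1651 to 2041 (day 1) and from 1468 to 1897 (day 3), an overlap. Since the highest members weigh most in a sum, the drop of the sum does not show a fall across the list. Normexp background correction left 2 lower and 0 higher calls in each arm, with an Activin A median of -0.28 over the 13. The median was 0.001 over the 5 members detected on all 6 Activin A arrays, 3 of them positive. MiR-199a-5p was at 7.39, 7.39 and 7.53 at day 1 and undetected on all day 3 arrays, at least 38.9-fold lower, a call lost with normexp background correction, where the difference was just under 2-fold. MiR-199b* and miR-214 were lost likewise, at least 19.1-fold and 19.7-fold lower. MiR-22 fell by 2.27, from 8.82, 8.94 and 9.002 to 6.59, 6.74 and 6.63. Of the 19 members, 9 were detected on all 3 arrays at day 1. The part of feeder cells in the falls of let-7, miR-125b-5p and miR-29 was not tested, and in such bulk samples fewer cells of a type and less RNA per cell cannot be told apart.

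MiR-10a, from a Hox cluster, fell more in Activin A than in control. It was at 6.17, 6.10 and 5.67 at day 1 and at 3.30, 3.14 and 3.06 at day 3, a difference of -2.81 (limma adjusted p = 2.08e-06). In control it went from 5.80, 5.30 and 5.60 to 3.92, 4.43 and 4.73. The shifts differed by -1.61 ± 0.31 (SE, limma adjusted p = 0.00384), a call that was lost with all 39 arrays in the fit, with the common detection floor (adjusted p up to 0.214) and with normexp background correction (-0.15, under 2-fold). The fall in Activin A was under 2-fold with normexp background correction, at -0.28. MiR-34b-5p, a p53 target, fell by 2.64 in Activin A and by 3.26 in control, and in Activin A differed by -0.39 with normexp background correction.

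MiR-335, from an intron of Mest, and the neural miR-124 and miR-219 had a lower shift in Activin A than in control. MiR-335-5p was at 5.89, 5.50 and 5.71 at day 1 and at 6.08, 5.79 and 6.12 at day 3 of Activin A, a difference of 0.30 that was not called. In control it went from 5.79, 5.60 and 5.82 to 8.72 on all 3 arrays. The arms overlapped at day 1 and stood apart at day 3, and the shifts differed by -2.69 ± 0.17 (SE, limma adjusted p = 3.02e-06), the largest such decrease among miRNAs detected on all 12 arrays. It lost its call with normexp background correction (adjusted p = 0.871). MiR-335-3p was also called lower in this contrast, with 2 of the 3 control arrays of day 1 at the floor, so its size depends on the floor.

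MiR-124, the leading miRNA of neurons, fell from 5.23, 5.14 and 5.60 to 4.01, 4.03 and 3.74 in Activin A, by 1.39 (limma adjusted p = 3.96e-05). In control it was at 5.67, 5.20 and 5.55 and then at 6.23, 6.01 and 5.92. The shifts differed by -1.97 ± 0.23 (SE, limma adjusted p = 0.000175), which was not called with all 39 arrays in the fit, with normexp background correction (adjusted p up to 0.271) or with the common detection floor. The raw signals of miR-124 in Activin A, 14.4, 11.5 and 21.5 at day 1 and 16.5, 14.3 and 17.7 at day 3, overlapped.

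Of the 7 neural miRNAs 6 were tested. In Activin A 2 were higher, miR-9 and miR-9*, near the 29% of all tested miRNAs, and miR-124 was lower, against 16.8%. In control 4 were higher, against 34.5%. With normexp background correction 0 of the 6 were called in Activin A, in control or for the difference between the shifts. The shift was lower in Activin A for 3, against 4.19% of all tested miRNAs, which were miR-124, miR-124* and miR-219, the last 2 being named here after their values were seen. MiR-9 was detected on 1 of 3 arrays at day 1 of Activin A, at 4.99, and was at 5.86, 5.80 and 5.92 at day 3, while in control it was undetected at day 1 and at 5.18, 5.33 and 5.35 at day 3. The shifts of miR-9 and miR-9* were not called as different. MiR-219 was undetected on all 6 Activin A arrays and at 6.95, 7.10 and 6.21 at day 3 of control, at least 4.77-fold above the limit of the control arrays of day 1. The summed signal of the list was 94.5 to 116 at day 1 and 122.4 to 125.1 at day 3 of Activin A, against 50.9 to 94.8 and 234 to 288 in control.

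The miR-17-92 cluster and its paralogs, which promote proliferation, had few calls in Activin A. Of 21 members 19 were tested, and 2 were higher and 0 lower in Activin A, against 29% of all tested miRNAs called higher. The 2 were miR-17 and miR-92b, the latter undetected at day 1 at a level those arrays could have missed. MiR-17 rose by 1.20, from 6.54, 6.44 and 7.66 to 8.07, 8.07 and 8.11. In control 6 were higher, near the 34.5% of all tested miRNAs. The median differences were 0.49 in Activin A and 0.83 in control. The shift was lower in Activin A for miR-20b and miR-92a, against 4.19% of all tested miRNAs. With normexp background correction 0 members were called in Activin A, 1 was higher in control and 1 had the lower shift in Activin A.

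The miR-23, miR-27 and miR-24 miRNAs fell less in Activin A than in control by their medians, -0.77 against -1.70. All 5 tested were called lower in control, against 19.7% of all tested miRNAs. In Activin A 1 was lower, against 16.8%, namely miR-23a, which fell by 1.90. Only miR-27a, with differences of -0.83 and -2.15, passed the test of the difference between the shifts (1.32, limma adjusted p = 3.95e-05). Over all tested miRNAs 8.39% had the higher shift in Activin A. With normexp background correction 0 of the 5 were called in Activin A, in control or for the difference. The medians were then -0.48 in Activin A and -0.65 in control.

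**Figure D4:**
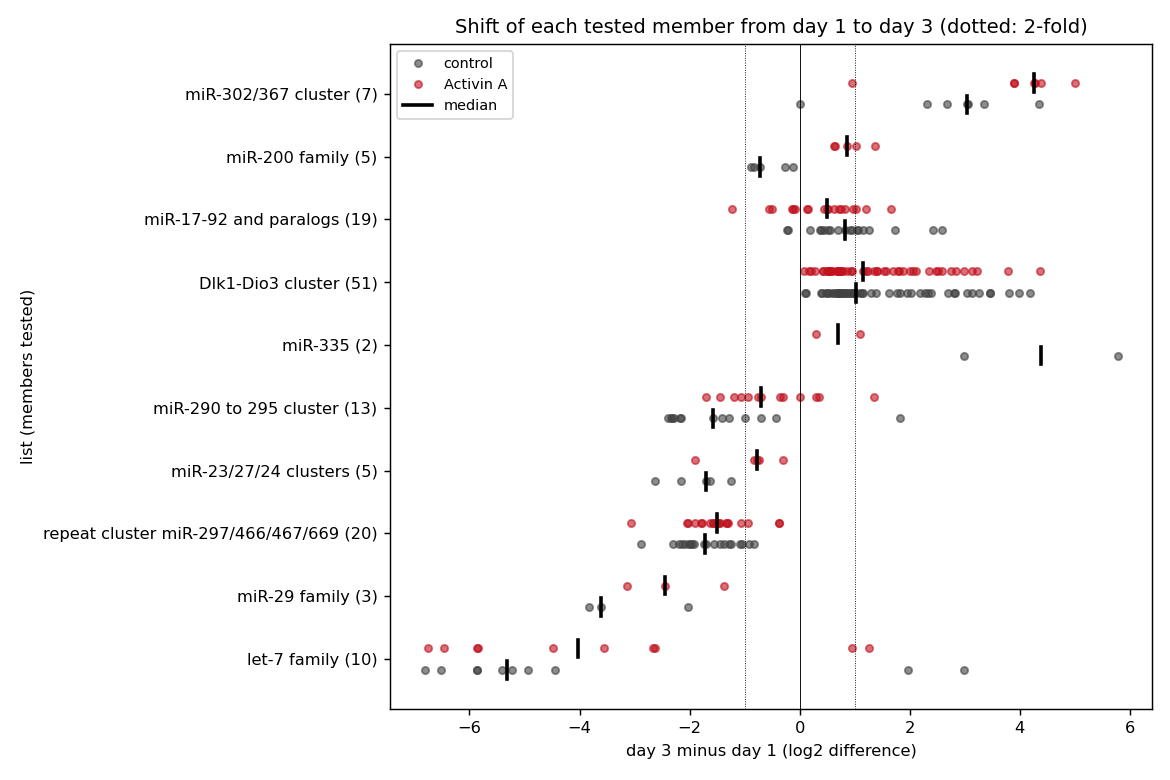
Log2 difference between day 3 and day 1 of every tested member of 10 lists (points) in Activin A and in control, with the median of each list as a black bar and the number tested in parentheses. Values of miRNAs undetected in a group rest on the floor. The medians of the miR-302/miR-367 list are 4.26 and 3.05 and those of the let-7 list -4.02 and -5.32, while the miR-200 medians lie on opposite sides of 0.

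In the 2 largest lists no member was called for the difference between the shifts. The imprinted Dlk1-Dio3 cluster, expressed from the maternal chromosome, had 51 of 71 members tested, of which 19 (37.3%) were higher and 0 lower in Activin A, where 29% of all tested miRNAs were higher, and 23 (45.1%) were higher in control, against 34.5%. The counts were 4 in Activin A and 1 in control with normexp background correction. Of the 19, 11 were undetected at day 1 at levels those arrays could have missed. The 32 members detected on all 6 Activin A arrays had a median difference of 0.70, all positive. MiR-370 rose by 1.88, from 5.18, 5.11 and 5.92 to 7.27, 7.22 and 7.36, and lost its call with slide as a term in the fit of all 39 arrays (adjusted p = 0.122). The difference between the shifts was called for 0 of the 51.

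The rodent-specific repeat cluster of miR-297, miR-466, miR-467 and miR-669, in an intron of Sfmbt2, had 20 of 39 members tested, and 14 were lower and 0 higher in each arm, against 16.8% and 19.7% of all tested miRNAs called lower in Activin A and control. In neither arm was a member called with normexp background correction. The median differences were -1.50 in Activin A and -1.72 in control, and the difference between the shifts was called for 0 of the 20. MiR-466a-3p fell from 9.27, 10.04 and 10.04 to 7.69, 7.87 and 7.66, by 2.05. Members of this cluster have near-identical sequences, so their probes may share signal.

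Other increases in Activin A were also seen in control. MiR-721 rose by 2.39 (2.13 in control), miR-135a* by 2.05 (2.55 in control), and miR-210, which responds to hypoxia, by 2.02 (1.07 in control). MiR-721 and miR-135a* differed by 0.72 and 0.74 in Activin A, under 2-fold, with normexp background correction. MiR-210 went from 5.48, 5.82 and 5.23 to 7.59, 7.56 and 7.44 in Activin A and lost its call with slide as a term in the fit of all 39 arrays (adjusted p = 0.108). MiR-714 differed by 2.12 (limma adjusted p = 0.0375). Its call was lost in 9 of 12 omissions of a single array, among them each of the 6 Activin A arrays.

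Gains from no detection were largest for miR-483, miR-125a-3p, miR-877, miR-218 and miR-302a*. MiR-483, from an intron of Igf2, was at least 5.20-fold higher at day 3, miR-125a-3p at least 5.00-fold, miR-877 at least 4.70-fold and miR-218 at least 4.50-fold. MiR-483, miR-125a-3p, miR-877 and miR-302a* were undetected in control at day 1 and detected at day 3 as well, while miR-218 was detected on 1 control array of day 1. With normexp background correction none of the 5 was called, the differences being 0.52 for miR-483, 0.39 for miR-125a-3p, 0.49 for miR-877, 0.91 for miR-218 and 0.41 for miR-302a*.

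The other lists hold few tested members, and their calls in Activin A are given beside the 45.8% called over all tested miRNAs. Of the 2 members of miR-221/miR-222, miR-222 was higher, from no detection to 3.96, 4.01 and 3.65, a level the day 1 arrays could have missed. In the miR-181 family 2 of 3 tested were lower, miR-181d by 2.18 and miR-181c with 1 day 3 array at the floor, and in the miR-130/miR-301 family 1 of 5 was higher, miR-301a by 1.63. In the miR-148/miR-152 family miR-152 was the 1 member of 3 called, and in the miR-15/16 seed group miR-15b* was the 1 of 8, both undetected at day 1 at levels those arrays could have missed. The miR-30 and miR-26 list had 1 lower of 9, miR-30e*, and the miR-183/miR-96/miR-182 cluster 0 of 4. In the miR-99/100 and miR-125 list, miR-125b-5p and miR-125a-3p were the 2 called of 7, and in the miR-10 and miR-196 list all 3 tested were called, miR-10a lower and miR-10b and miR-196b higher, both from no detection at day 1 at levels those arrays could have missed. MiR-196b had raw signals of 0.1, 7.71 and 8.72 at day 3, the first without detection. With normexp background correction, the calls left in these lists in Activin A were miR-125b-5p and 1 higher member of the miR-130/miR-301 family.

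Markers of other cell types were scarce. All 8 muscle miRNAs were undetected on the 12 arrays. Of 8 gut, liver and pancreas miRNAs, 1 was detected in Activin A, miR-375, at 3.35, 3.25 and 3.17 at day 3 and undetected at day 1, where those arrays could have missed it. Of 11 blood and endothelial miRNAs 3 were tested, and miR-150 and miR-155 were lower at day 3 in both arms. Over all tested miRNAs 16.8% were lower in Activin A and 19.7% in control. With normexp background correction 0 of the 3 were called in either arm. The raw signals of miR-155 in Activin A, 16.5, 12.2 and 14.4 at day 1 and 11.2, 9.51 and 15.4 at day 3, overlapped. MiR-150 was at 5.82, 5.67 and 5.98 at day 1 and undetected at day 3 of Activin A, at least 12.7-fold lower.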

How the data were processed

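MiRNAs were measured on 1-colour Agilent mouse miRNA arrays, 3 for each of 13 groups. The deposited scanner files hold the total gene signal, an intensity that the authors' Feature Extraction software had background-subtracted and summed over probes, with a detection flag for each miRNA. The file headers name version 10.7.3.1 and the submitters' processing notes 9.5.3.1. The deposited table of log2 values was used only to compare ranks, since 18 of its 39 columns matched another array, with the Activin A and the Activin A plus Wnt3a columns exchanged.

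The signals of 611 mouse miRNAs were quantile normalized over 39 arrays, floored at 2 and log2 transformed in R 4.3.3 with limma 3.58.1. The 4 groups were fitted together over 12 arrays, and the difference between the shifts was a contrast of that fit. Where a group was undetected on all arrays, a bound on the fold was computed from the lowest detected signal of each array. The named miRNAs are the 10 largest increases and 10 largest decreases among called miRNAs detected on all Activin A arrays, the 5 highest bounds for a gain and the 5 for a loss of detection, the 5 largest differences between the shifts in each direction among called miRNAs detected on all 12 arrays, and examples from the lists. The members and lists were chosen with earlier results of these data known. In simulated data for Activin A day 3 against day 1 over 196 miRNAs, 29 of 30 changed miRNAs were recovered and 2 unchanged ones called. The changed miRNAs were drawn from those detected on all 3 day 1 arrays, and the simulated days did not differ in raw brightness. The simulation therefore does not cover gains from no detection or the brightness difference between the real days. Same-numbered Activin A arrays of day 1 and day 3 had correlated deviations from their group means (3 pairs, correlation 0.152 to 0.26). For 6 differently numbered pairs the correlation was -0.223 to 0.0507. Since deviations within a group of 3 arrays cancel, these ranges are not independent. Differently numbered control pairs of the same days reached 0.437, and the labels state no pairing. Alternatives covered the normalization, background correction, floor, detection filter, slide, test and each array left out. The number of arrays limits the precision.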

Additional observations from a re-analysis of the deposited data

Results flagged for a closer look

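Among the miRNAs named for the size of their change or of the difference between the shifts, 16 differed in their shift from day 1 to day 3 between Activin A and control, in limma's test of the difference between the shifts with Benjamini-Hochberg adjustment over 310 miRNAs and a difference over 2-fold. The shift was lower in Activin A for miR-335-5p by a log2 difference of -2.69, for miR-125b-5p by -2.10, for miR-124 by -1.97, for miR-10a by -1.61 and for miR-92a by -1.25. It was higher in Activin A for let-7e by 2.74, let-7c by 2.59, miR-367 by 1.96, miR-291a-3p by 1.64, miR-200a by 1.64, miR-429 by 1.58, miR-200b by 1.52, miR-29b by 1.39, miR-302a by 1.22, miR-302b by 1.21 and miR-302c by 1.04. MiRNAs named only as list members are not repeated here. Of the 16, only miR-291a-3p and miR-92a kept their call with normexp background correction, and miR-92a lost its call with both scalings to the 75th percentile. The let-7e and let-7c differences were not positive with normexp background correction. No slide held both days of either arm, so the part of the slides in these differences was not tested within a slide.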

How the results depend on the processing

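Single named miRNAs were checked in the contrast that named them, under the alternatives and with each array left out. None of these values reversed, and 53 lost their call. The differences between the shifts of let-7e and let-7c were not among these values and were not positive with normexp background correction. Normexp background correction of median spot signals left 14 higher and 12 lower calls in Activin A, 9 and 14 in control, and 3 and 1 for the difference between the shifts. With all values raised to the highest detection limit there were 35 higher calls in Activin A, 48 in control and 15 for the difference. Over the miRNAs detected on all 12 arrays alone there were 20 higher calls in Activin A, 31 in control and 8 lower calls for the difference. Scaling those to the 75th percentile, a choice made after seeing the data, gave 21 and 35 higher calls, and 17 higher and 4 lower for the difference. The lower calls of the difference were 23 with log2 signals quantile normalized, 23 with the methods' one-way test over the 4 groups, and 22 with the arrays labelled Activin A plus Wnt3a in place of Activin A. That last setting called 91 higher and 49 lower in Activin A. The cause of these changes was not tested, beyond the fewer miRNAs tested in the settings with all 12 arrays. Leaving out each of the 12 arrays in turn gave 84 to 94 higher and 50 to 54 lower calls in Activin A, 83 to 114 and 58 to 63 in control, and 23 to 29 and 11 to 19 for the difference. With the replicate number as a block there were 90 higher and 51 lower calls in Activin A, 107 and 61 in control, and 26 and 14 for the difference. Blocking within the 6 Activin A arrays alone, a choice made after seeing the data, gave 86 higher and 55 lower calls, and no named miRNA lost its call there. In control and between the arms the numbers did not pair the arrays (15 same-numbered pairs, 2 of them over 0.1). Slide as a term gave 80 higher and 53 lower calls in Activin A. Signals near the detection limit of the day 1 arrays limit what a gain in detection shows.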

Other observations

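The arrays also carry probes for viral miRNAs, which entered no comparison. Of 39 viral miRNAs, 5 were detected on at least 1 of the Activin A arrays of these days. Mcmv-miR-M23-1-3p was undetected at day 1 of Activin A and had raw signals of 193.8, 201.6 and 212.6 at day 3, against 274, 293 and 287 at day 3 of control. Mcmv-miR-M23-1-5p had raw signals of 85.4, 75.2 and 92.8 at day 3 of Activin A and 107, 120 and 107 at day 3 of control.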
